A study of Mus musculus with 27 samples.

Results

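The members of the set were 10 autosomal genes that encode dioxygenases removing methyl groups from DNA or histones, Tet2, Tet3, Kdm2a, Kdm2b, Kdm3a, Kdm4a, Kdm4b, Kdm4c, Kdm5b and Kdm6b. They were chosen by name among the 50559 genes of the deposited count table, and all 10 were found and passed the filter on low counts. They were measured in murine bone marrow-derived macrophages from age-matched female C57BL/6 mice, 3 to 4 months old by the labels, either wild-type (WT) or TRAP1-deficient (TRAP1 KO). TRAP1 is a mitochondrial chaperone that restrains succinate dehydrogenase. Macrophages were left unpolarized (Mφ, M0 in the labels) or polarized to M2 by 24 h of IL-4 (10 ng/ml), and were then kept for 48 h either in DMEM as control medium or in MPNST-CM. MPNST-CM is medium conditioned by murine cells of malignant peripheral nerve sheath tumor, which derive from skin precursors lacking Nf1 and p53. The values describe cultured cells after this exposure and not macrophages taken from a tumor. RNA was read by 3′ mRNA-seq, in 8 groups of 3 batch 1 libraries each, for which 7037684 to 9089792 reads per library were counted on genes. The members had between 22 and 718 reads per batch 1 library. Levels are given as TMM-normalised CPM, which are counts scaled to a common library size, and since 3′ reads were counted on genes of different 3′ ends, no level is compared between genes.

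Each of these enzymes uses oxoglutarate, oxygen and iron, and releases succinate as a product. Succinate and fumarate compete with oxoglutarate at the active site, so that these enzymes link mitochondrial metabolism to chromatin, as do the prolyl hydroxylases that mark HIF-1α for degradation. TET enzymes oxidize methylcytosine in DNA, whereas the JmjC enzymes of the KDM families each remove methyl groups from particular lysines of histone H3. In macrophages, TET2 is known for restraining inflammatory genes, and KDM6B, also called JMJD3, is known as a gene induced by inflammatory stimuli and as a regulator of IL-4 responses.

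All 24 batch 1 libraries carried the signature of macrophages, with the summed level of 8 macrophage markers between 8380 and 12900 CPM. Csf1r, the receptor that these cells need to survive, was between 1440 and 3100 CPM. Markers of T cells, B cells and erythroid cells summed to at most 0.414 CPM in any library, fibroblast markers to at most 4.35 CPM and Schwann cell markers to at most 8.26 CPM. Dendritic cell markers lay between 3.8 and 16.8 CPM, and neutrophil markers between 1.63 and 20 CPM. In this bulk measurement, fewer cells of a type and less RNA per cell cannot be told apart. Trap1 had 83 to 144 reads in the 12 WT libraries and 0 in the 12 TRAP1 KO libraries of batch 1. Xist, the RNA that coats the inactive X chromosome of female cells, was at 268 to 502 CPM in these WT libraries and at most 1.14 CPM in these TRAP1 KO libraries, although the labels describe all mice as female. The genotype comparisons in batch 1 therefore differ in Xist as well as in Trap1, and both differences cannot be told apart. By Xist, the 12 TRAP1 KO libraries of batch 1 thus go against the label for sex. Kdm5d and Uty, which lie on the Y chromosome, did not pass the filter on low counts. Why Xist was missing was not tested. In batch 2, the 2 libraries of TRAP1 KO M2 replicate 4, in either medium, had Xist at 308 and 404 CPM and at most 2 Trap1 reads, which goes with their labels of female and TRAP1 KO. Results below rest on batch 1. Of the 34 calls made for members over all comparisons, 10 were also made with all 27 libraries and 24 were not, with 1 of these opposite in sign. Over all genes, fewer calls were also made with 27 libraries in each comparison. For the response to MPNST-CM in WT Mφ, 958 genes were called against 2889 in batch 1. For genotype in Mφ in MPNST-CM, 3097 were called against 5207.

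WT Mφ exposed to MPNST-CM had the lowest mean level of all 8 groups for 8 of the 10 members. The exceptions were Kdm2a and Kdm2b, both H3K36 demethylases with a CXXC domain that binds unmethylated CpG. Kdm2a was lowest in WT M2 in MPNST-CM and Kdm2b in TRAP1 KO M2 in MPNST-CM. For 7 of the 10 members the highest group was a TRAP1 KO group, where as many groups were TRAP1 KO as WT. How often either pattern occurs among all genes was not counted. The distance between the lowest and the highest group mean (log2 CPM, prior count of 2) was 2.03 for Kdm6b and 1.82 for Kdm5b, against within-group SDs of 0.34 and 0.43. Next came Tet2 with 1.01 and Kdm2b with 0.90. The other members spanned between 0.53, for Kdm2a, and 0.84, for Kdm4c. The median span over the 13614 genes tested was 0.92, so that Kdm6b and Kdm5b stood at the 85.4 and 82.5 percentiles of all genes and 7 of the members were below the median.

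**Figure D1:**
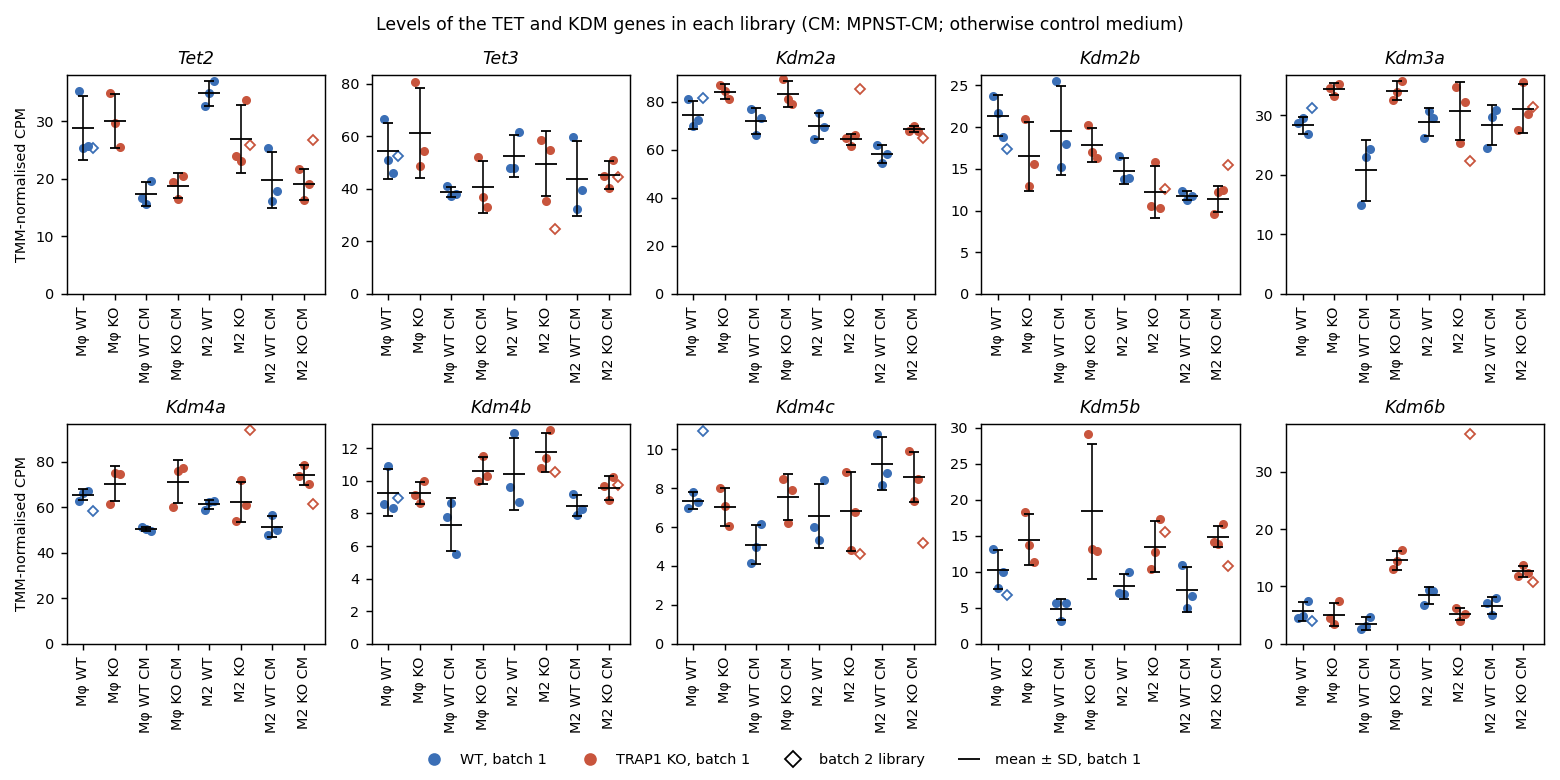
TMM-normalised CPM of each member in each library, with 1 panel per gene, the 8 groups on the horizontal axis, and bars for the mean ± SD of the 3 batch 1 libraries. Open diamonds are batch 2 libraries, which were normalised together with batch 1. Kdm6b was at 12.98 to 16.3 CPM in TRAP1 KO Mφ exposed to MPNST-CM and at 2.55 to 4.74 CPM in WT Mφ in MPNST-CM.

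TRAP1 KO was compared with WT in each of the 4 conditions, with edgeR's quasi-likelihood test and Benjamini-Hochberg adjustment over all genes tested. A gene was called where its adjusted p was under 0.05. In MPNST-CM, 6 of the 10 members in Mφ and 4 in M2 were higher in TRAP1 KO cells and none was lower, and in control medium none was called. Of all genes, 19.1% were called higher and 19.2% lower in Mφ in MPNST-CM, and 17.2% and 16.8% in M2 in MPNST-CM. In control medium, 0 members were called in either direction in Mφ (8.64% of all genes higher, 7.97% lower) and 0 in M2 (8.56% higher, 7.87% lower). The median log2 fold change of the members was 0.52 in Mφ in MPNST-CM, where that of all genes was 0.04, and 0.16 against 0.05 in M2 in MPNST-CM. In control medium it was 0.08 in Mφ and -0.03 in M2. With all 27 libraries 5 members were called in Mφ in MPNST-CM and 0 in M2 in MPNST-CM, where 22.6% and 12.2% of all genes were called.

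**Figure D2:**
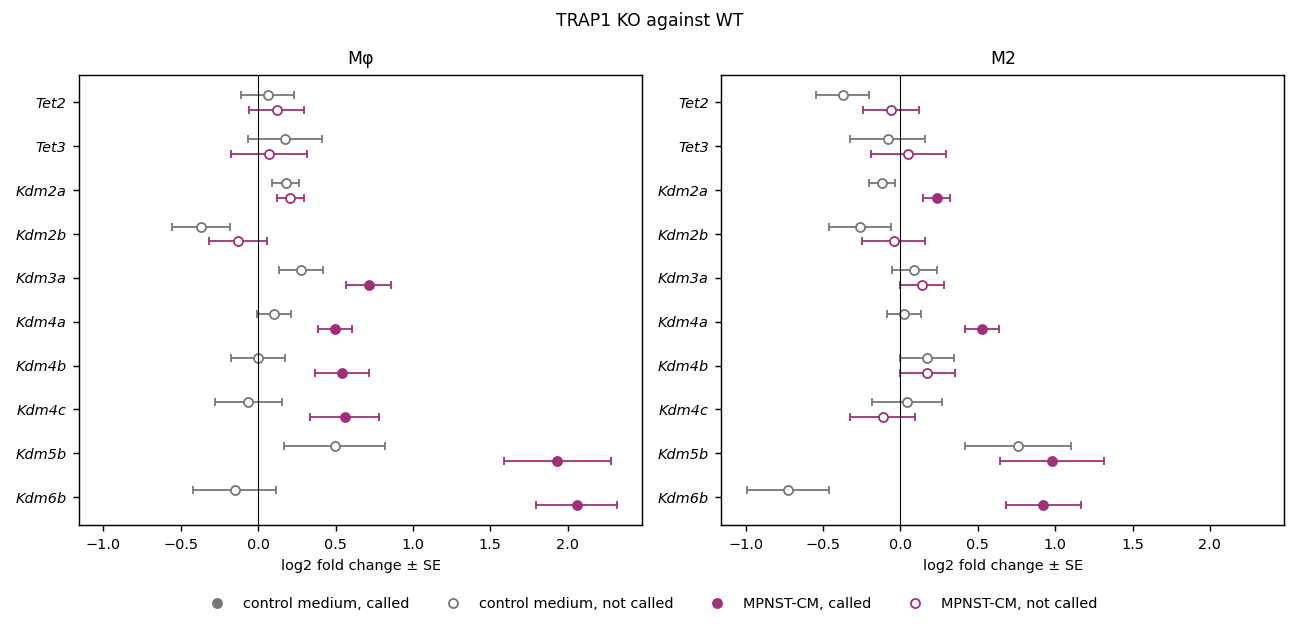
Log2 fold change ± SE of TRAP1 KO against WT for each member, in Mφ (left) and M2 (right), in control medium (grey) and MPNST-CM (purple). Filled points passed the adjusted p of 0.05 and are all in MPNST-CM, with Kdm6b at 2.06 and Kdm5b at 1.93 in Mφ.

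Kdm6b encodes the demethylase of H3K27me3 that opens genes silenced by Polycomb. In Mφ in MPNST-CM it was at 12.98, 14.4 and 16.3 CPM in the TRAP1 KO libraries and at 2.55, 3.11 and 4.74 CPM in the WT libraries. Every TRAP1 KO library thus lay above every WT library, with means of 14.6 and 3.47 CPM. The log2 fold change was 2.06 (SE 0.26, n = 3 and 3, edgeR adjusted p = 3.92e-07). In M2 in MPNST-CM, the TRAP1 KO libraries had 11.8, 13.7 and 12.4 CPM and the WT libraries 7.04, 5.00 and 7.93 CPM, again without overlap (log2 fold change 0.92, SE 0.24, edgeR adjusted p = 0.00425). In control medium the order was not kept. In M2 the TRAP1 KO libraries, at 6.15, 4.02 and 5.24 CPM, all lay below the WT libraries, at 6.76, 9.33 and 9.27 CPM, but the difference missed the threshold (log2 fold change -0.73, SE 0.26, edgeR adjusted p = 0.0622). Its direction turned when batch 2 was included (0.64, edgeR adjusted p = 0.457). In Mφ the groups overlapped in control medium. With the 27 libraries, the M2 difference in MPNST-CM was 0.82 and was no longer called (edgeR adjusted p = 0.344).

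Kdm5b encodes a demethylase of H3K4me3, a mark of active promoters. It was at 29.2, 13.1 and 12.9 CPM in TRAP1 KO Mφ exposed to MPNST-CM and at 5.67, 3.11 and 5.61 CPM in WT. Replicate 1 of TRAP1 KO was the highest of all 24 libraries, and the other TRAP1 KO libraries were also above each WT library. The log2 fold change was 1.93 (SE 0.35, n = 3 and 3, edgeR adjusted p = 1.36e-04) and it was called without any 1 of the libraries. In M2 in MPNST-CM, the TRAP1 KO libraries had 14.2, 13.9 and 16.6 CPM and the WT libraries 10.9, 5.00 and 6.67 CPM. The groups did not overlap, with a log2 fold change of 0.98 (SE 0.34, edgeR adjusted p = 0.0284). This call was lost without any 1 of 4 libraries, TRAP1 KO replicate 1 or 3 or WT replicate 2 or 3, at log2 fold changes of 0.76 to 1.02, and also when batch 2 was included (0.83, edgeR adjusted p = 0.0869). In control medium, Kdm5b had a log2 fold change of 0.76 in M2 (SE 0.34, edgeR adjusted p = 0.142) and of 0.49 in Mφ (SE 0.33, edgeR adjusted p = 0.375).

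Kdm3a and the members of the Kdm4 family share the H3K9 marks as substrates. KDM3A removes mono- and dimethylation, and KDM4A, KDM4B and KDM4C remove trimethylation. Kdm3a was at 32.6, 33.9 and 35.8 CPM in TRAP1 KO Mφ exposed to MPNST-CM and at 14.9, 23.1 and 24.3 CPM in WT, a log2 fold change of 0.72 (SE 0.14, edgeR adjusted p = 2.73e-04). Kdm4a was at 60.3, 75.9 and 77.3 CPM against 51.4, 50.5 and 49.6 CPM, a log2 fold change of 0.50 (SE 0.11, edgeR adjusted p = 6.08e-04). Both pairs of groups were fully separated. Kdm4b, with 9.99, 11.6 and 10.3 CPM against 7.76, 8.64 and 5.50 CPM, had a log2 fold change of 0.54 (SE 0.18, edgeR adjusted p = 0.0165). Kdm4c, with 8.49, 6.20 and 7.90 CPM against 4.17, 4.96 and 6.15 CPM, had a log2 fold change of 0.56 (SE 0.22, edgeR adjusted p = 0.0486). For Kdm4c the lowest TRAP1 KO library and the highest WT library were nearly equal, and its call was lost in 28 of the 33 other fits tried, 20 of them without 1 library (log2 fold change 0.43 to 0.56 in those 20). With batch 2 included it was 0.54 (edgeR adjusted p = 0.15). Kdm4b lost its call without TRAP1 KO replicate 2 or WT replicate 3, at 0.48 and 0.37, and when only the groups compared were fitted.

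In M2 in MPNST-CM, of these H3K9 demethylases Kdm4a alone was called. It was at 73.7, 78.6 and 70.1 CPM in TRAP1 KO and at 47.9, 56.7 and 49.8 CPM in WT, with no overlap (log2 fold change 0.53, SE 0.11, edgeR adjusted p = 3.77e-04). Kdm3a (log2 fold change 0.14, 95% interval -0.14 to 0.42), Kdm4b (0.18, -0.17 to 0.52) and Kdm4c (-0.11, -0.52 to 0.30) were not called there. Whether the gap between TRAP1 KO and WT in MPNST-CM differed between Mφ and M2 was not tested. Kdm2a, at 68.0, 70.1 and 68.0 CPM in TRAP1 KO M2 and 62.2, 54.7 and 58.1 CPM in WT M2 in MPNST-CM, was also higher (log2 fold change 0.24, SE 0.09, edgeR adjusted p = 0.0374). That call was lost in 20 of the 33 other fits, 12 of them without 1 library (0.18 to 0.24) and among the rest that with batch 2 included (0.17, edgeR adjusted p = 0.332). In Mφ in MPNST-CM, Kdm2a had a log2 fold change of 0.21 (SE 0.09, edgeR adjusted p = 0.0587) with no overlap. Over the 27 libraries, Kdm4a in M2 in MPNST-CM had a log2 fold change of 0.41 and was not called (edgeR adjusted p = 0.0661).

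The TET genes and Kdm2b were not called between genotypes in any condition. Tet2 had log2 fold changes between -0.37 in M2 in control medium (SE 0.17, edgeR adjusted p = 0.145) and 0.12 in Mφ in MPNST-CM (95% interval -0.23 to 0.47). Tet3 lay between -0.08 and 0.17. Kdm2b was lower in TRAP1 KO in each of the 4 conditions by its fold change, from -0.37 in Mφ in control medium to -0.04 in M2 in MPNST-CM, and none passed the test.

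The same libraries differed between genotypes in other transcripts. The summed level of 5 genes induced by IL-4 was 2540 to 2670 CPM in TRAP1 KO Mφ exposed to MPNST-CM and 1170 to 1350 CPM in WT Mφ in MPNST-CM. Neutrophil markers summed to 4.14 to 6.87 CPM and 8.3 to 9.22 CPM in the same libraries, and dendritic cell markers to 8.15 to 11.4 CPM and 3.8 to 5.39 CPM. The part of these differences in the results for the members was not tested.

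The response to MPNST-CM was then compared within each genotype. Tet2 fell in all 4 comparisons, whereas Kdm6b rose in TRAP1 KO and not in WT. In WT Mφ, MPNST-CM lowered 4 members and raised 0, among 9.96% of all genes lower and 11.3% higher. In TRAP1 KO Mφ, 1 member was lower and 1 higher, with 18.1% and 14.8% of all genes. In WT M2, 2 members were lower and 0 higher (13.3% and 11.2% of all genes), and in TRAP1 KO M2, 1 was lower and 1 higher (20.2% and 16.7%). Except for the lower members in WT Mφ and in WT M2, these shares were below those of all genes. All 10 members had a fold change below 0 in WT Mφ, with a median log2 of -0.47 where the median of all genes was -0.02, whereas 6 of 10 were above 0 in TRAP1 KO Mφ.

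**Figure D3:**
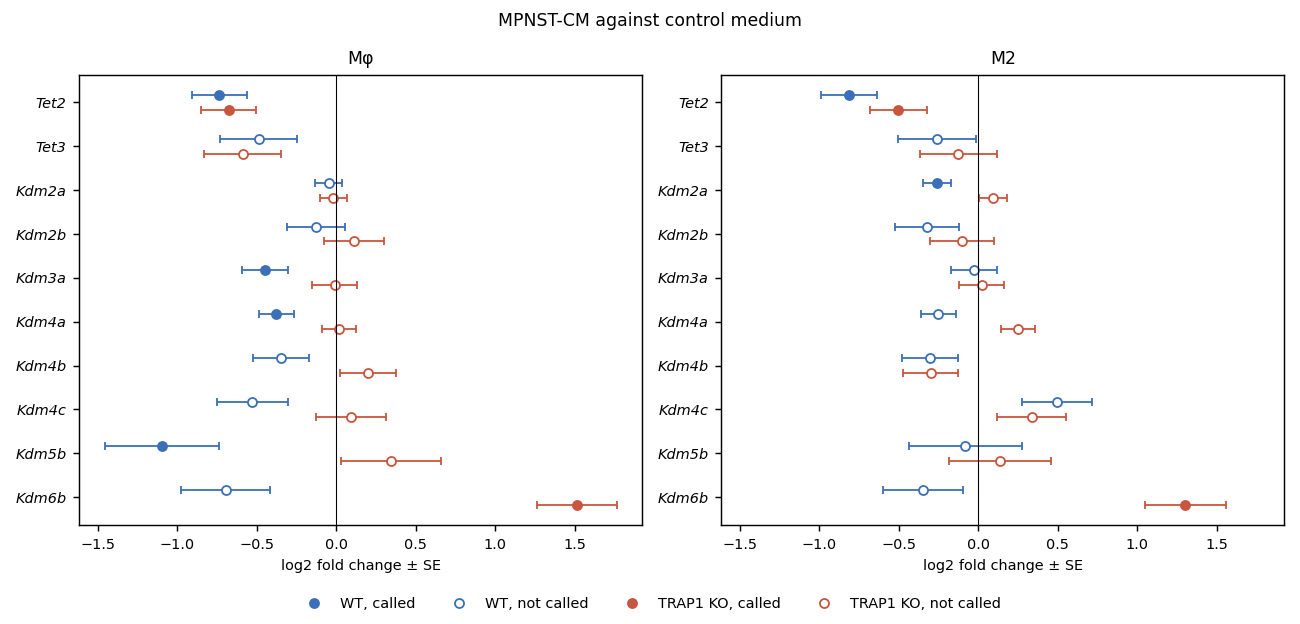
Log2 fold change ± SE of MPNST-CM against control medium for each member, in Mφ (left) and M2 (right), in WT (blue) and TRAP1 KO (red). Filled points passed the adjusted p of 0.05. Tet2 lies below 0 in all 4 comparisons, and Kdm6b lies at 1.51 and 1.30 in TRAP1 KO but below 0 in WT.

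Tet2, which encodes the main TET enzyme of myeloid cells, was at 16.7, 15.6 and 19.6 CPM in WT Mφ in MPNST-CM and at 35.2, 25.4 and 25.8 CPM in control medium. In TRAP1 KO Mφ it was at 19.5, 16.4 and 20.5 CPM in MPNST-CM and at 34.9, 29.7 and 25.5 CPM in control medium. In WT M2 the values were 25.4, 16.2 and 17.9 CPM in MPNST-CM and 32.6, 34.97 and 36.9 CPM in control medium. In TRAP1 KO M2 they were 21.7, 16.3 and 19.1 CPM, and 24.0, 23.03 and 33.7 CPM. In each of the 4 pairs, all libraries in MPNST-CM lay below all libraries in control medium. The log2 fold changes were -0.73 in WT Mφ (SE 0.18, edgeR adjusted p = 0.00315), -0.68 in TRAP1 KO Mφ (SE 0.18, edgeR adjusted p = 0.00334), -0.81 in WT M2 (SE 0.17, edgeR adjusted p = 8.18e-04) and -0.50 in TRAP1 KO M2 (SE 0.18, edgeR adjusted p = 0.0264). The first 3 of these calls were kept in all 33 other fits. The call in TRAP1 KO M2 was lost without MPNST-CM replicate 2 or 3 or control medium replicate 3 (-0.51 to -0.30), and with all 27 libraries (-0.33, edgeR adjusted p = 0.237). A difference in this response between genotypes was not called by the interaction test, at 0.06 in Mφ (95% interval -0.43 to 0.54) and 0.31 in M2 (-0.17 to 0.80).

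Tet3, the other TET gene tested, had log2 fold changes of -0.49 in WT Mφ (SE 0.24, edgeR adjusted p = 0.175) and -0.59 in TRAP1 KO Mφ (SE 0.24, edgeR adjusted p = 0.0706), neither of which passed. Tet1, the third gene of the family, did not pass the filter on low counts. In WT Mφ, Kdm5b and 2 of the 4 H3K9 demethylases, Kdm3a and Kdm4a, were called lower along with Tet2. Kdm4b (-0.35, edgeR adjusted p = 0.186) and Kdm4c (-0.53, edgeR adjusted p = 0.0962) were not. Kdm5b fell from 13.1, 7.69 and 10.0 CPM to 5.67, 3.11 and 5.61 CPM (log2 fold change -1.10, SE 0.36, edgeR adjusted p = 0.0331). Kdm3a fell from 28.7, 29.6 and 26.8 CPM to 14.9, 23.1 and 24.3 CPM (-0.45, SE 0.15, edgeR adjusted p = 0.0284), and Kdm4a from 62.8, 66.5 and 67.3 CPM to 51.4, 50.5 and 49.6 CPM (-0.38, SE 0.11, edgeR adjusted p = 0.0131). None of the 3 was called in TRAP1 KO Mφ, where the log2 fold changes were 0.34, -0.01 and 0.02. With all 27 libraries, Tet2 was the only member called in WT Mφ. In WT M2, Kdm2a was lower along with Tet2, at 62.2, 54.7 and 58.1 CPM in MPNST-CM and 64.6, 75.4 and 69.5 CPM in control medium (-0.26, SE 0.09, edgeR adjusted p = 0.0292), a call lost in 14 of the 33 other fits, 8 of them without 1 library (-0.26 to -0.16) and among the rest that with batch 2 included (-0.21, edgeR adjusted p = 0.272). The Kdm3a call was also lost without 1 of 7 libraries, WT Mφ in MPNST-CM replicate 1 (-0.26, the lowest Kdm3a value), WT Mφ in control medium replicate 1 or 2, any of WT M2 in control medium replicates 2, 3 and 4 or TRAP1 KO M2 in control medium replicate 3. The Kdm5b call was lost without control medium replicate 1 or 3 or any 1 of the MPNST-CM replicates of WT Mφ (-1.23 to -0.87).

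Kdm6b was at 4.50, 3.40 and 7.36 CPM in TRAP1 KO Mφ in control medium and at 12.98, 14.4 and 16.3 CPM in MPNST-CM, a log2 fold change of 1.51 (SE 0.25, edgeR adjusted p = 2.37e-05). In TRAP1 KO M2 it went from 6.15, 4.02 and 5.24 CPM to 11.8, 13.7 and 12.4 CPM (1.30, SE 0.26, edgeR adjusted p = 1.79e-04). In WT cells the values in MPNST-CM were not higher. In WT Mφ they were 4.54, 4.82 and 7.52 CPM in control medium against 2.55, 3.11 and 4.74 CPM in MPNST-CM (-0.70, SE 0.28, edgeR adjusted p = 0.0774), and in WT M2 6.76, 9.33 and 9.27 CPM against 7.04, 5.00 and 7.93 CPM (-0.35, SE 0.25, edgeR adjusted p = 0.366). The library labelled TRAP1 KO M2 in control medium replicate 4, of batch 2, had Kdm6b at 36.6 CPM, above all other libraries. With all 27 libraries the log2 fold change in TRAP1 KO M2 was -0.12 (edgeR adjusted p = 0.91) and that in TRAP1 KO Mφ was 1.56 (edgeR adjusted p = 0.0562).

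The difference between the genotypes in the response to MPNST-CM was tested as an interaction. In Mφ, 2 members had a higher response in TRAP1 KO and 0 a lower response, with 8.17% and 11.5% of all genes. In M2 it was 3 and 0, with 9.36% and 10.8%. For Kdm6b the response in TRAP1 KO exceeded that in WT by 2.21 on the log2 scale in Mφ (SE 0.37, edgeR adjusted p = 6.96e-05) and by 1.65 in M2 (SE 0.36, edgeR adjusted p = 0.00135). For Kdm5b it was 1.44 in Mφ (SE 0.48, edgeR adjusted p = 0.0368) and 0.22 in M2 (95% interval -0.72 to 1.16). For Kdm4a the difference was 0.50 in M2 (SE 0.15, edgeR adjusted p = 0.02) and 0.39 in Mφ (SE 0.15, edgeR adjusted p = 0.0716). For Kdm2a it was 0.35 in M2 (SE 0.12, edgeR adjusted p = 0.0426) and 0.03 in Mφ. The median difference over the members was 0.42 in Mφ and 0.22 in M2, and that over all genes was -0.01 and 0.02. These differences share their libraries with the comparisons of genotype and of medium given above. Both Kdm6b calls were kept when any 1 library was left out. That of Kdm5b was lost without any 1 of 6 libraries (0.94 to 1.46), which were, in Mφ, WT replicates 1 and 3 and TRAP1 KO replicates 2 and 3 in control medium, and TRAP1 KO replicate 1 and WT replicate 2 in MPNST-CM. That of Kdm4a was lost without any 1 of 6 (0.38 to 0.46), which were, in M2, TRAP1 KO replicates 1 and 3 and WT replicates 3 and 4 in control medium, and WT replicate 1 and TRAP1 KO replicate 2 in MPNST-CM, and that of Kdm2a without any 1 of 12 (0.26 to 0.36). With all 27 libraries none of the 5 was called, at 2.11 and 0.18 for Kdm6b in Mφ and M2, 1.33 for Kdm5b, 0.23 for Kdm4a and 0.18 for Kdm2a.

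Polarization to M2 was compared with Mφ of the same genotype and medium. Kdm2a and Kdm2b were the members called lower in M2, though neither in all 4 comparisons. Kdm2a was not called in WT in control medium (log2 fold change -0.09, edgeR adjusted p = 0.43). Nor was Kdm2b in TRAP1 KO in control medium (-0.43, edgeR adjusted p = 0.11). Kdm2b, also a subunit of a variant Polycomb complex, was lower in WT in control medium (log2 fold change -0.54, SE 0.19, edgeR adjusted p = 0.0281), in WT in MPNST-CM (-0.74, SE 0.19, edgeR adjusted p = 0.0056) and in TRAP1 KO in MPNST-CM (-0.65, SE 0.20, edgeR adjusted p = 0.0304). In WT in MPNST-CM it was at 12.3, 11.2 and 11.7 CPM in M2 and at 25.5, 15.2 and 18.01 CPM in Mφ, and without the highest of these, Mφ replicate 1, the fold change was -0.50 and was not called. In WT in control medium the call was lost without Mφ replicate 1 or 2 or M2 replicate 3 or 4 (-0.53 to -0.46), and in TRAP1 KO in MPNST-CM without any 1 of the 3 M2 replicates or Mφ replicate 1 or 2 (-0.71 to -0.54). Kdm2a was lower in TRAP1 KO in control medium, at 65.1, 61.6 and 66.3 CPM in M2 and 87.2, 84.7 and 81.0 CPM in Mφ (-0.39, SE 0.09, edgeR adjusted p = 9.84e-04), in WT in MPNST-CM (-0.31, SE 0.09, edgeR adjusted p = 0.00956) and in TRAP1 KO in MPNST-CM (-0.28, SE 0.09, edgeR adjusted p = 0.0343). The call in WT in MPNST-CM was lost without Mφ replicate 1 or M2 replicate 2 (-0.26 in both), and that in TRAP1 KO in MPNST-CM without any 1 of 5 libraries (-0.30 to -0.22), the 3 M2 replicates and Mφ replicates 1 and 2. When batch 2 was included, the Kdm2b call in WT in MPNST-CM was the 1 call of the 6 that was also made. The fold changes of the other 5 were then -0.54 to -0.26 (edgeR adjusted p 0.0734 to 0.125).

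In WT in MPNST-CM, 3 members were higher in M2 than in Mφ. Kdm4c was at 10.8, 8.17 and 8.81 CPM in M2 and at 4.17, 4.96 and 6.15 CPM in Mφ (log2 fold change 0.86, SE 0.22, edgeR adjusted p = 0.00428), a call kept in all 33 other fits. Kdm6b (0.93, SE 0.27, edgeR adjusted p = 0.013) and Kdm3a (0.45, SE 0.15, edgeR adjusted p = 0.0249) were the others. Without Mφ replicate 1 the Kdm6b and Kdm3a calls were lost (0.75 and 0.26), as they were without M2 replicate 3 (0.79 and 0.38), and that of Kdm3a also without M2 replicate 2 (0.41). Neither was called when batch 2 was included (0.95, edgeR adjusted p = 0.358, and 0.46, edgeR adjusted p = 0.0862). In all, 0 members were higher and 1 lower in M2 in WT in control medium (19.1% and 18.1% of all genes), 0 and 1 in TRAP1 KO in control medium (15.6% and 12.9%), 3 and 2 in WT in MPNST-CM (11.9% and 13%), and 0 and 2 in TRAP1 KO in MPNST-CM (6.71% and 4.47%).

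**Figure D4:**
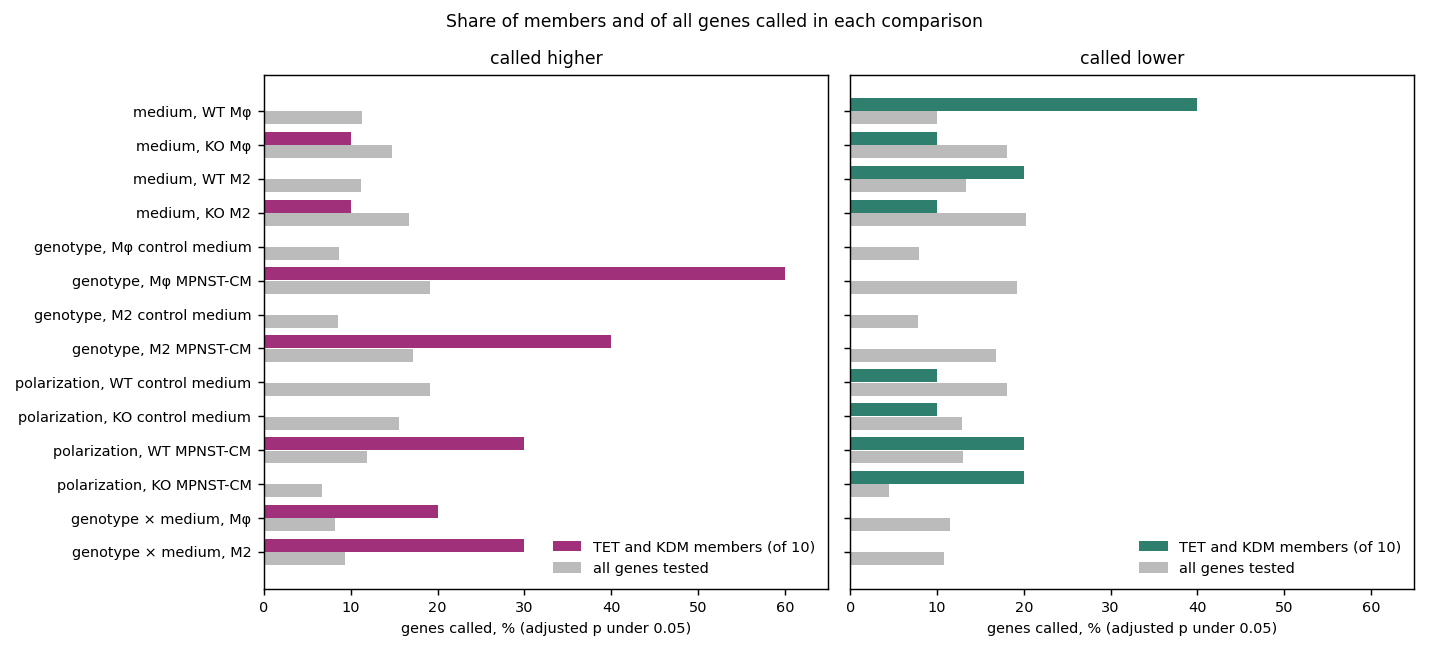
Percent of the 10 members (colored bars) and of the 13614 genes tested (grey bars) called higher (left) or lower (right) in each of the 14 comparisons, where higher means higher in MPNST-CM, in TRAP1 KO or in M2. The longest member bars are the 6 of 10 higher in TRAP1 KO Mφ exposed to MPNST-CM and the 4 of 10 lower in WT Mφ in MPNST-CM.

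Related genes were read from 5 lists chosen along with the members. Among the other JmjC and TET enzymes, 13 of 17 genes were tested (Tet1, Kdm4d, Kdm5d and Uty were not). In Mφ in MPNST-CM, 3 of the 13 were higher and 3 lower in TRAP1 KO (23.1% each, against 19.1% and 19.2% of all genes), and in M2 in MPNST-CM 1 was higher and 4 lower (7.69% and 30.8%, against 17.2% and 16.8%). When batch 2 was included the counts were 2 and 2 in Mφ, and 1 and 0 in M2. Kdm7a, which encodes a demethylase of H3K9me2 and H3K27me2, was at 142 ± 6.62 CPM in TRAP1 KO Mφ and 59.0 ± 3.23 CPM in WT Mφ in MPNST-CM (SD, n = 3 each), with a log2 fold change of 1.26 (SE 0.08, edgeR adjusted p = 1.12e-12). Riox1, a ribosomal oxygenase, was at 16.7 and 32.5 CPM (-0.96, SE 0.18, edgeR adjusted p = 1.12e-04). Hr, a JmjC corepressor, was at most 0.652 CPM in any Mφ library, and in WT M2 MPNST-CM lowered it from 13.8 ± 1.09 to 2.94 ± 0.814 CPM (-2.23, SE 0.31, edgeR adjusted p = 4.71e-06), a change not called when batch 2 was included (-2.17, edgeR adjusted p = 0.0821). Jmjd6, a lysyl hydroxylase, rose in WT Mφ in MPNST-CM from 23.5 to 35.95 CPM (0.61, SE 0.12, edgeR adjusted p = 3.68e-04). In Mφ in control medium, no gene of this list was called between genotypes (8.64% of all genes higher, 7.97% lower). The X-linked demethylases Kdm6a and Kdm5c were called lower in TRAP1 KO M2 in control medium, by -0.57 and -0.39 on the log2 scale, and Kdm5c also in M2 in MPNST-CM (-0.31). None of these 3 was called when batch 2 was included (-0.46, -0.17 and -0.18). Both genes were picked with their values in view, and both are known to escape X inactivation, so that their values stand beside the Xist difference.

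Among the 8 FAD-dependent demethylases and CoREST subunits, which need no oxoglutarate, 1 was higher and 0 lower in TRAP1 KO Mφ exposed to MPNST-CM (12.5% and 0%, against 19.1% and 19.2% of all genes). It was Phf21a, a reader of unmethylated H3K4, at 119.6 and 51.1 CPM (log2 fold change 1.23, SE 0.09, edgeR adjusted p = 4.46e-11). Phf21a was also called higher in TRAP1 KO in control medium, in Mφ (0.36, edgeR adjusted p = 0.00718) and M2 (0.45, edgeR adjusted p = 0.00145). When batch 2 was included, the M2 call was kept (0.82, edgeR adjusted p = 0.0233) and that in Mφ was not (0.31, edgeR adjusted p = 0.499). In M2 in MPNST-CM 1 of the list was higher and 1 lower (12.5% each, against 17.2% and 16.8% of all genes), the latter being Hdac2, a deacetylase (-0.43, SE 0.11, edgeR adjusted p = 0.00422). Hdac1, a related deacetylase, rose in TRAP1 KO M2 in MPNST-CM from 17.2 to 27.9 CPM (0.70, SE 0.13, edgeR adjusted p = 1.29e-04), but was not called when batch 2 was included (0.36, edgeR adjusted p = 0.209).

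The methyltransferases of DNA and histones, among them writers of the marks the members remove, had calls in both directions. In Mφ in MPNST-CM, 2 of 24 were higher and 8 lower in TRAP1 KO (8.33% and 33.3%, against 19.1% and 19.2% of all genes). In M2 in MPNST-CM 2 were higher and 9 lower (8.33% and 37.5%, against 17.2% and 16.8%). The median log2 fold change of the list was nevertheless above 0 in both, at 0.04 and 0.15. In M2 in control medium 3 were higher and 1 lower in TRAP1 KO (12.5% and 4.17%, against 8.56% and 7.87% of all genes). In WT M2 the response to MPNST-CM had 4 in each direction (16.7% each, against 11.2% of all genes higher and 13.3% lower). When batch 2 was included, 1 was higher and 7 lower in TRAP1 KO Mφ after MPNST-CM, and 1 and 5 in M2. Ezh2, the H3K27 methyltransferase that opposes KDM6B, was at 30.6 and 128 CPM in TRAP1 KO Mφ and WT Mφ exposed to MPNST-CM (log2 fold change -2.06, SE 0.16, edgeR adjusted p = 3.40e-10). Suv39h1, an H3K9 methyltransferase encoded on the X chromosome, was at 8.08 and 29.3 CPM (-1.86, SE 0.16, edgeR adjusted p = 4.28e-10). In control medium, Ezh2 was at 52.5 CPM in TRAP1 KO Mφ and 109 CPM in WT Mφ, and Suv39h1 at 13.9 and 21.6 CPM. The values of Suv39h1 also stand beside the Xist difference. In TRAP1 KO M2, MPNST-CM lowered Dnmt3a, a DNA methyltransferase, from 631 to 95.5 CPM (-2.73, SE 0.21, edgeR adjusted p = 1.88e-09) and Dot1l, the H3K79 methyltransferase, from 233 to 52.4 CPM (-2.15, SE 0.08, edgeR adjusted p = 3.03e-17). Over all 27 libraries these were -1.49 for Dnmt3a, which was not called (edgeR adjusted p = 0.087), and -1.20 for Dot1l, which was. Both were also lower in MPNST-CM in WT M2, where Dnmt3a went from 366 to 215 CPM and Dot1l from 232 to 115 CPM.

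Of 17 enzymes that make or use succinate and oxoglutarate, 1 was higher and 4 lower in TRAP1 KO Mφ exposed to MPNST-CM, and 0 and 5 in M2 in MPNST-CM. Those higher were 5.88% in Mφ and 0% in M2, against 19.1% and 17.2% of all genes. For those lower, the 23.5% in Mφ was near the 19.2% of all genes, and the 29.4% in M2 stood beside 16.8%. The counts were 0 and 3, and 0 and 1, when batch 2 was included. Idh3a, a subunit of the NAD-dependent isocitrate dehydrogenase that yields oxoglutarate, was at 30.2 and 66.0 CPM in TRAP1 KO Mφ and WT Mφ exposed to MPNST-CM (log2 fold change -1.13, SE 0.22, edgeR adjusted p = 3.58e-04). Idh2, the mitochondrial NADP-dependent enzyme, was at 47.3 and 81.6 CPM (-0.79, SE 0.09, edgeR adjusted p = 6.50e-08). In control medium, Idh3a was at 26.1 CPM in TRAP1 KO Mφ and 40.9 CPM in WT Mφ, and Idh2 at 56.9 and 73.4 CPM. Sdhc, a membrane subunit of succinate dehydrogenase, fell in WT M2 in MPNST-CM from 289 to 189.5 CPM (-0.61, SE 0.09, edgeR adjusted p = 7.44e-06). D2hgdh, which turns 2-hydroxyglutarate into oxoglutarate, fell in TRAP1 KO M2 in MPNST-CM from 12.6 to 6.53 CPM (-0.93, SE 0.22, edgeR adjusted p = 0.00127). The Sdhc and D2hgdh changes were not called with all 27 libraries (edgeR adjusted p = 0.0506 and 0.18).

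HIF targets, which are induced when oxygen is low or when the oxoglutarate-dependent prolyl hydroxylases are inhibited, had more calls in one direction in Mφ in MPNST-CM than the other 4 lists. In TRAP1 KO against WT in MPNST-CM, 13 of the 15 tested were higher and 0 lower in Mφ (86.7%, against 19.1% of all genes higher), and 8 were higher and 1 lower in M2 (53.3%, against 17.2%). In response to MPNST-CM, 9 were higher and 2 lower in WT Mφ, 14 and 1 in TRAP1 KO Mφ, 3 and 3 in WT M2, and 12 and 2 in TRAP1 KO M2. The higher shares of 60%, 93.3%, 20% and 80% stand beside 11.3%, 14.8%, 11.2% and 16.7% of all genes. The lower shares of 13.3%, 6.67%, 20% and 13.3% stand beside 9.96%, 18.1%, 13.3% and 20.2%. When batch 2 was included, the genotype counts were 10 and 0 in Mφ and 2 and 1 in M2, and the response counts 3 and 0, 14 and 0, 1 and 0, and 4 and 2. In TRAP1 KO M2 the response of Egln3 then went from 3.38 to 0.02 and that of Vegfa from 1.86 to -0.25. Ndrg1 and Slc2a1 were the 2 targets called lower there in both fits. These values were chosen after they were seen. Vegfa, the angiogenic growth factor, was at 288 ± 30.5 CPM in TRAP1 KO and 26.5 ± 4.29 CPM in WT Mφ in MPNST-CM (SD, n = 3 each), and its log2 fold change was 3.44 (SE 0.12, edgeR adjusted p = 4.49e-18). In control medium, Vegfa was at 34.1 CPM in TRAP1 KO Mφ and 16.8 CPM in WT Mφ. Egln3, a HIF prolyl hydroxylase, rose in TRAP1 KO Mφ in MPNST-CM from 1.00 to 19.7 CPM (4.29, SE 0.33, edgeR adjusted p = 4.30e-11). Ero1a, an oxidase of protein folding, rose from 20.8 to 96.5 CPM (2.21, SE 0.11, edgeR adjusted p = 4.58e-15), and P4ha2, a collagen prolyl hydroxylase, from 3.62 to 13.5 CPM (1.90, SE 0.22, edgeR adjusted p = 7.67e-08). Kdm3a and Kdm4b, members of the set, are known as HIF-responsive genes. Their responses to MPNST-CM in TRAP1 KO Mφ were -0.01 and 0.20 on the log2 scale, and neither was called. In WT Mφ they were -0.45, which was called, and -0.35, which was not.

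**Figure D5:**
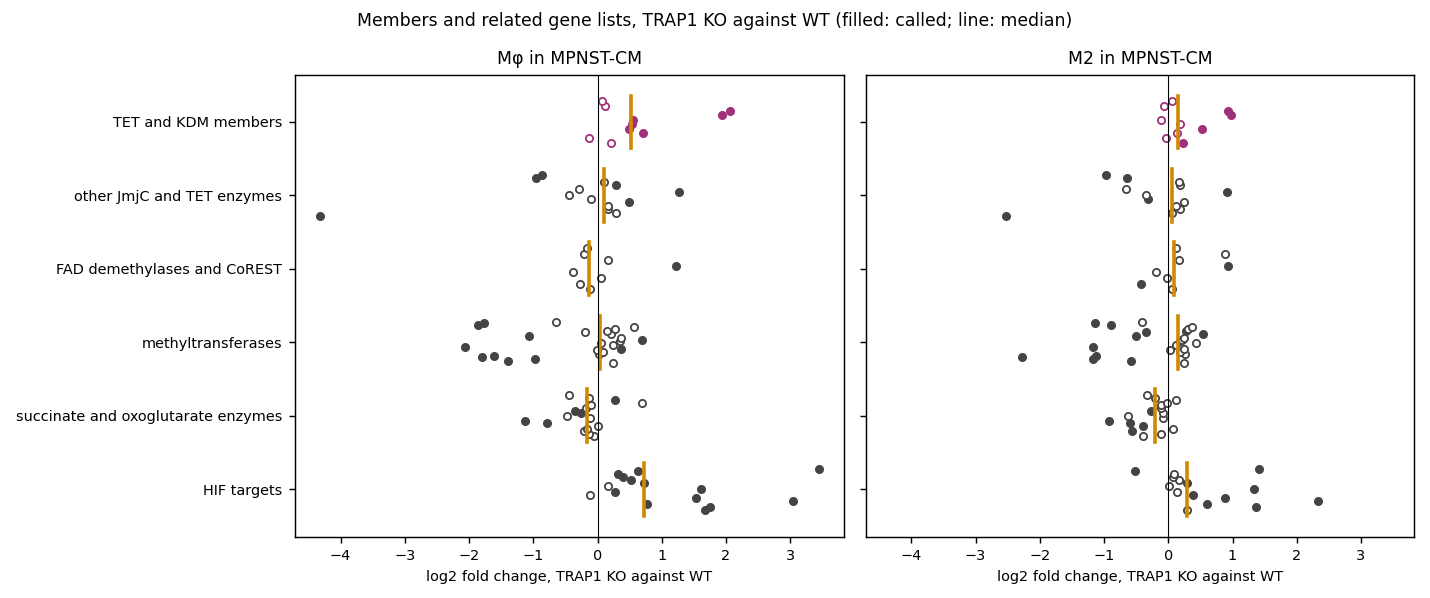
Log2 fold change of TRAP1 KO against WT in MPNST-CM for every tested gene of the members and of the 5 related lists, in Mφ (left) and M2 (right). Each point is a gene, filled where it was called, and the vertical line is the median of the list. In Mφ the members had 6 called genes, all to the right of 0, and the HIF targets 13.

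The promoters of members that moved in different ways were read for the core letters that HIF binds, since HIF targets were higher in the same libraries. RefSeq start sites (GRCm38.p6) were found by symbol for 7 of the 10 members, at 13 start sites in all, and Kdm2a, Kdm4b and Kdm6b had no entry. The letters ACGTG and GCGTG were searched on both strands, as CACGT and CACGC on the opposite strand, in the 250 bases before each start. ACGTG overlaps itself on the opposite strand within CACGTG, the E-box. At least 1 core was found at 8 of the 13 start sites, and at 38.6% of the 32851 start sites of the table. All 4 start sites of Kdm2b were among the 8, and entries 2 and 4 of these overlap and hold the same cores. Kdm4c held 6 matches, some overlapping, at 1 of its 2 start sites. Counted by gene, 5 of 7 members held a core at any start site, as did all 15 of the HIF targets that were found and 41.5% of the 27025 genes in the table. A match describes these letters and was not tested as a binding site. Shown here, 5′ to 3′ on the strand of the gene and with the cores in capitals, are Kdm5b (chr1:134559928-134560177, plus strand) and Kdm3a (chr6:71632918-71633167, minus strand, the first of 3 start sites), both higher in TRAP1 KO Mφ exposed to MPNST-CM, and Tet2 (chr3:133544391-133544640, minus strand), which fell in MPNST-CM in both genotypes.
Kdm5b: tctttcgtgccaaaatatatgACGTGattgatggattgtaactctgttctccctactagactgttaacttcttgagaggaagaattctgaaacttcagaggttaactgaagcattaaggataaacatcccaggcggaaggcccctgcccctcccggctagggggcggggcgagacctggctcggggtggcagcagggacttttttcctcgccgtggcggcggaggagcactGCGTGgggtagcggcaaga
Kdm3a: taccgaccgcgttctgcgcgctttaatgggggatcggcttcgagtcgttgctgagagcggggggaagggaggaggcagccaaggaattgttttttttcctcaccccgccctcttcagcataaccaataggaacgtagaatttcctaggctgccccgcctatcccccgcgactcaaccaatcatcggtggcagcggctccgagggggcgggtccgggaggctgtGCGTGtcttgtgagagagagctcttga
Tet2: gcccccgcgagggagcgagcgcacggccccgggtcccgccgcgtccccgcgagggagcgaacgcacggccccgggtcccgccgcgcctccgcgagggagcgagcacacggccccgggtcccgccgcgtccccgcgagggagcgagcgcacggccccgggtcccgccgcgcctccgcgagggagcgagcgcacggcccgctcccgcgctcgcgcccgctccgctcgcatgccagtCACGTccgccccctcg
In Kdm5b the cores began 229 and 19 bases before the start site, in Kdm3a 27 bases and in Tet2 16 bases before it. Kdm4a held none in this window, nor did Tet3 or the other start sites of Kdm3a. Whether the cores have a part in the changes of these genes was not tested.

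Across the 24 batch 1 libraries, which fall into 8 groups and share their normalisation, Pearson correlations of log2 CPM describe how alike the patterns were. The members most alike were Tet2 and Tet3 (r = 0.733, n = 24), and those most unlike were Kdm2b and Kdm4c (r = -0.441, n = 24). Among genes with a mean of at least 10 CPM, the patterns most like that of Kdm6b were those of Ptger2 (0.882), Ube2g1 (0.851) and Csgalnact2 (0.850). Kdm5b was most like Fbxl20 (0.898), Hbp1 (0.895) and Ubn2 (0.887), Tet2 most like Gpr65 (0.830), Arhgap9 (0.816) and Asph (0.813), and Kdm2b most like Gnai2 (0.905), Septin6 (0.846) and Ptpn6 (0.839).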

How the data were processed

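The study measured mRNA of WT and TRAP1 KO macrophages by the QuantSeq 3′ mRNA-seq kit, which keeps the strand. The authors trimmed reads with Trimmomatic, mapped them with HISAT2, filtered on mapping quality with SAMtools and counted reads on genes with featureCounts. They deposited raw counts without normalization. The table is named for mm39, as are the processing notes, whereas the methods name mm10. The strand setting of the counting is not given in the sources used here. Of the 32 columns, 5 that could not be matched to a label were left out.

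Groups come from the labels. Counts of 24 batch 1 libraries in 8 groups entered a single robust quasi-likelihood fit in edgeR 4.0.16, run under R 4.3.3 with limma 3.58.1. Library sizes were scaled by TMM, low counts were filtered by group, which left 13614 genes, and p-values were adjusted by Benjamini-Hochberg over these genes. SEs were taken from the fold change and its F statistic. The threshold was an adjusted p of 0.05. The 14 comparisons were of medium, genotype, polarization and the interaction of genotype and medium. On simulated counts for TRAP1 KO against WT Mφ in MPNST-CM, edgeR recovered 91 of 100 genes changed by a fold of 2. It recovered 99 of 100 changed by a fold of 4, with 12 false calls among 12263 genes. The simulation gave all genes the same fixed spread, not fitted to these data, and changed only genes above a set expected count. These rates therefore need not hold for the members. Alternatives were DESeq2 1.42.0, other size factors, no filter, other sets of libraries, batch or replicate number as terms and leaving out each library. Members and lists were chosen with earlier results of these data known. Related genes were named by a rule of at most 4 per list with the largest change called in any comparison of medium or genotype (not polarization) and at least 10 CPM, and genes alike in pattern by the 3 highest correlations for the 4 members of widest span. No replicate pair of the 24 was as close as sampling noise (chi-square per degree of freedom 2.11 to 37.4). Nothing says whether replicates came from separate animals, so p-values measure the spread between these libraries, which may be technical. Promoter sequences are from RefSeq.

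The replicate numbers were checked for pairing. Deviations from the group means correlated by 0.107 on average over 77 pairs of libraries with equal numbers (-0.214 to 0.521, 34 of them over 0.1), and by -0.0451 over 175 pairs with other numbers (30 over 0.1). Equal numbers thus deviated together somewhat more. In batch 1, WT M2 in control medium is numbered 2 to 4 and the other groups 1 to 3. The numbers may therefore misplace that group, and this check cannot decide whether libraries were paired. The main fit did not use the numbers, so any sharing between libraries is not accounted for.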

Additional observations from a re-analysis of the deposited data

Results flagged for a closer look

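In TRAP1 KO M2 in control medium, the library labelled replicate 4, of batch 2, had Kdm6b at 36.57 CPM, and the nearest of the other 3 libraries was at 6.05 CPM. Its gap to that library was 0.935 of the range of the group. In WT Mφ in control medium, replicate 1 had Tet2 at 35.45 CPM and the nearest of the others was at 25.94 CPM, a gap of 0.942 of the range. Both exceed Dixon's 95% critical value for 4 libraries. They were the 2 of 30 tested combinations of member and group past it, and chance flags about 1 in 20. The Tet2 call in WT Mφ was kept without that replicate, and values with and without batch 2 are given above for Kdm6b.

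The response to MPNST-CM differed between TRAP1 KO and WT by the interaction test for Kdm6b in Mφ (a log2 difference of 2.21) and in M2 (1.65), for Kdm5b in Mφ (1.44), and for Kdm4a (0.50) and Kdm2a (0.35) in M2. All of these were higher in TRAP1 KO. With all 27 libraries the Kdm6b difference in M2 was 0.18.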

How the results depend on the processing

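Of 34 member calls in batch 1, 16 were kept in every other fit of batch 1, including those that left out 1 library, 8 were kept in all 33 other fits, and 32 were kept with DESeq2. Of all genes, fewer were called with all 27 libraries than in batch 1 in each comparison. The share ran from 1.31% for the interaction in M2 to 26.9% for polarization in WT in control medium. Numbers of members called are given with the number in the report in parentheses. With all 27 libraries, of which batch 2 holds too few to give a value of its own, they were 1 (4) for medium in WT Mφ, 1 (2) in TRAP1 KO Mφ, 1 (2) in WT M2 and 0 (2) in TRAP1 KO M2, 0 (4) for genotype in M2 in MPNST-CM, 0 (1), 0 (1), 2 (5) and 0 (2) for polarization in WT and TRAP1 KO in control medium and in WT and TRAP1 KO in MPNST-CM, and 0 (2) and 0 (3) for the interaction in Mφ and M2. Batch as a covariate gave the same numbers except for 2 in TRAP1 KO Mφ, and 1 for polarization in TRAP1 KO in either medium. The Kdm6b response in TRAP1 KO M2 reversed to -0.121 with all 27 libraries. Without the filter on low counts they were 1 (2) for medium in WT M2, 1 (0) and 2 (4) for genotype in M2 in control medium and MPNST-CM, 2 (1) and 1 (2) for polarization in WT in control medium and TRAP1 KO in MPNST-CM, and 1 (2) and 1 (3) for the interactions. With only the groups compared they were 1 (2) for medium in WT M2, 4 (6) and 3 (4) for genotype in Mφ and M2 in MPNST-CM, where Kdm4b and Kdm4c, and Kdm2a, were lost, 2 (0) for genotype in M2 in control medium, 2 (5) and 1 (2) for polarization in WT and TRAP1 KO in MPNST-CM, and 1 (2) for the interaction in Mφ. Library totals alone gave 3 (1) and 3 (1) for polarization in WT and TRAP1 KO in control medium, where the median of all genes shifted by -0.274 and -0.183, and 3 higher and 0 lower for medium in TRAP1 KO M2. With 25 libraries, a choice made after seeing the data, they were 1 (2) for medium in WT M2 and 2 (1) for polarization in WT in control medium. The replicate number as a block changed polarization in WT in control medium to 0 (1), and gave 6 (4) for medium in WT Mφ. Since the block drops the only library numbered 4, and 11 of 24 libraries correlated best with their own number, the block was not used. Leaving out each library gave 2 to 4 for medium in WT Mφ, 1 to 2 in WT M2, 1 to 3 in TRAP1 KO M2, 5 to 6 for genotype in Mφ in MPNST-CM, 0 to 1 and 2 to 4 for genotype in M2 in control medium and MPNST-CM, 0 to 2, 1 to 2, 1 to 5 and 0 to 2 for polarization in the order above, and 1 to 2 and 1 to 3 for the interactions in Mφ and M2. The causes were not tested. At 22 reads for the lowest member value, counting error alone is large for Kdm6b.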
